A study of Mus musculus with 7 samples.

Results

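Expression of 29 genes of gamma-aminobutyric acid (GABA) transmission was followed in the cortex of APP/PS1 mice kept on a ketogenic diet (KD) or a control diet (CD). The genes were taken by symbol for their roles. They cover GABA synthesis, vesicle loading, uptake and breakdown, the receptor subunits, the inhibitory postsynaptic scaffold, the chloride transporters and the interneuron homeobox factors. All 29 were found among the 23413 gene symbols counted, and 28 had enough reads to be tested. The mice of both groups carried the APPswe and PSEN1dE9 transgenes on a B6.Cg background, a model of amyloid deposition. The promoter that drives the transgenes is not given in the sources used here, and no wild-type cortex is among these libraries. Diets began at 6 months of age and ran for 7 months, so the mice were 13 months old, and the animals were housed singly on equal calories. By energy, CD was 74% carbohydrate and 16% fat, KD was under 0.5% carbohydrate and 90% fat, and each held 10% protein. One library of total RNA was made per mouse, 4 for CD (named SD in the sample labels) and 3 for KD. Both sexes were used in the study, but the sex behind each library is not given.

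GABA is the main inhibitory transmitter of the adult cortex. Interneurons make it from glutamate with 2 decarboxylases and load it into vesicles. After release it opens GABA-A receptors, which are chloride channels built of 5 subunits, and it acts more slowly through GABA-B receptors, which couple to G proteins. Whether an open GABA-A channel inhibits depends on the chloride gradient, which is set by transporters in the membrane of the receiving neuron.

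The libraries held from 22272883 to 36614954 counts, with the 2 smallest in the KD group. Levels are given as CPM, the counts of a gene scaled to a common library size after TMM normalization, and as mean ± SD (n = 4 for CD and n = 3 for KD) where single libraries are not listed. Folds are log2 fold changes of KD minus CD from edgeR. Standard errors were worked back from edgeR's quasi-likelihood test, as the absolute fold divided by the square root of its F statistic. Cortical excitatory neuron markers such as Slc17a7 were abundant in each library. The ventral forebrain markers summed to 143 CPM in KD replicate 3 and to between 7.45 and 11.5 CPM in the other 6 libraries. That sum was carried by Baiap3, Ecel1, Ngb and Lhx9. Among the rarer factors of the list, Isl1 had 1.19 CPM and Sim1 1.15 CPM in that library, against at most 0.239 and 0.274 CPM elsewhere, while Nkx2-1 had 0.221 CPM, Otp 0.0442 CPM and Chat 0.177 CPM. The striatal neuron markers also summed highest there, to 422 CPM against 218 to 297 CPM in the other libraries, with Penk at 123 CPM and Tac1 at 35.0 CPM. CD replicate 4 had the highest Cdhr1 (31.3 CPM), Eomes (7.47 CPM) and Tbx21 (2.24 CPM), markers of the olfactory bulb, and CD replicate 3 had an oligodendrocyte marker sum of 1105 CPM against 3576 to 4281 CPM in the other CD libraries.

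Across the GABA genes, 17 of the 28 tested had a higher fitted level in KD and 11 a lower one, against 49% of all 15881 tested genes with a fold above 0. The median log2 fold change was 0.05 over the 28 genes and -0.0033 over all tested genes. With edgeR's quasi-likelihood test, 3 of the 28 (10.7%) had a raw p-value under 0.05, as did 3.19% of all tested genes. They were Gad1, lower in KD as were 1.52% of all tested genes, and Gabrb1 and Gabrq, higher in KD as were 1.66%. None of the 28, and 0 of all 15881 genes, passed a Benjamini-Hochberg adjusted p-value of 0.05 in that test, and the smallest adjusted value was 0.979. DESeq2 gave 4 GABA genes at a raw p-value under 0.05 (Gad1, Gabrb1, Gabra3 and Gabrg1), with 3.68% of all tested genes, and again 0 at the adjusted threshold. The number at the raw threshold in other fits is given beside the share over all genes in the same fit. It was 1 without CD replicate 1 (1.63% of all tested genes) and 1 without CD replicate 2 (2.13%), and 5 without CD replicate 3 (7.38%) or without KD replicate 2 (4.56%). Without CD replicate 4 and KD replicate 3 together it was 1, namely Gad1, with 2.54% of all genes.

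**Figure D1:**
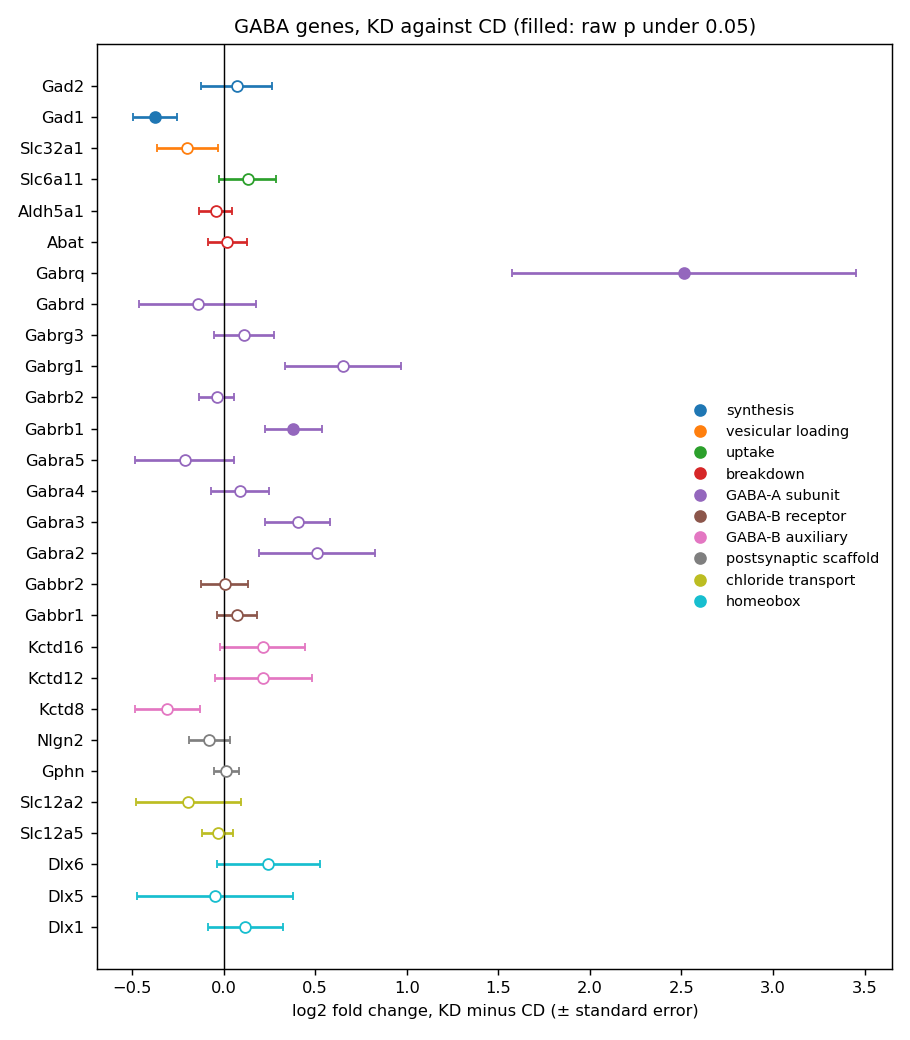
Log2 fold change of KD minus CD (x axis) for the 28 tested GABA genes (y axis), ordered and coloured by role, with bars for ± 1 standard error and filled points where edgeR gave a raw p under 0.05. Gad1 lies at -0.37 and Gabrq at 2.51 with a standard error of 0.94, while Gphn, Gabbr2, Slc12a5 and Abat lie close to 0.

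The GABA-synthesizing enzymes differed in their values. Gad1 encodes GAD67, which makes most of the GABA of interneuron cell bodies, and had lower values in KD. It had 509, 545, 472 and 656 CPM in CD replicates 1 to 4 and 403, 413 and 448 CPM in KD replicates 1 to 3. Each KD library lay below each CD library, with the closest pair at 448 CPM in KD replicate 3 and 472 CPM in CD replicate 3. It was the only one of the 28 genes whose ranges did not overlap, and such a gap was found for 4.11% of all tested genes, with KD lower for 2.07% and KD higher for 2.05%. Means were 546 ± 79.6 CPM for CD (SD, n = 4) against 421 ± 23.4 CPM for KD (SD, n = 3). This gave a log2 fold change of -0.37 (standard error 0.12), with a raw p of 0.0138 and an adjusted p of 0.979 in edgeR's quasi-likelihood test. The fold stayed negative in all 15 alternative fits, from -0.44 to -0.27, and the raw p in edgeR or DESeq2 was under 0.05 in 14 of them. The exception was the fit without KD replicate 1, where edgeR gave a raw p of 0.05001. In whole tissue, fewer cells that express a gene and less RNA per cell cannot be told apart.

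Gad2 encodes GAD65, the form found mainly at nerve terminals, and had no such gap between the diets. It had 159, 168, 180 and 189 CPM in CD and 147, 146 and 255 CPM in KD. Replicates 1 and 2 of KD lay below all CD libraries and replicate 3 lay above them, so the groups overlapped. Its log2 fold change of 0.07 (standard error 0.19) became -0.25 with a raw p of 0.0357 in edgeR when KD replicate 3 was left out. The difference between the folds of Gad1 and Gad2 was not tested. The ratio of Gad1 to Gad2 counts was 3.21, 3.25, 2.62 and 3.46 in CD and 2.73, 2.83 and 1.76 in KD, where library scaling cancels. The lowest ratio was that of KD replicate 3, and CD replicate 3 lay below the other KD libraries.

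Slc32a1 encodes the transporter that loads GABA into synaptic vesicles. It had 27.6, 23.6, 18.0 and 25.1 CPM in CD and 19.4, 18.1 and 24.1 CPM in KD. The groups overlapped, and the log2 fold change was -0.20 (standard error 0.16), -0.31 without CD replicate 3 and -0.33 without KD replicate 3. Beside these genes, the sum of 14 cortical interneuron markers was 850, 883, 828 and 826 CPM in CD and 782, 820 and 836 CPM in KD. The sum joins markers that went opposite ways in KD replicate 3. In that library Reln (306 CPM) and Nos1 (86.4 CPM) were at their highest, and Pvalb (18.4 CPM) and Cck (86.8 CPM) at their lowest. These examples were picked after their values were seen. None of the 14 had a raw p-value under 0.05 in edgeR, with 6 higher and 8 lower. The largest downward fold among them was that of Pvalb, which had 110, 109, 67.4 and 73.4 CPM in CD and 65.0, 69.2 and 18.4 CPM in KD, a log2 fold change of -0.82 (standard error 0.41, raw p of 0.0804 in edgeR). The part of interneuron content in the Gad1 difference was not tested.

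**Figure D2:**
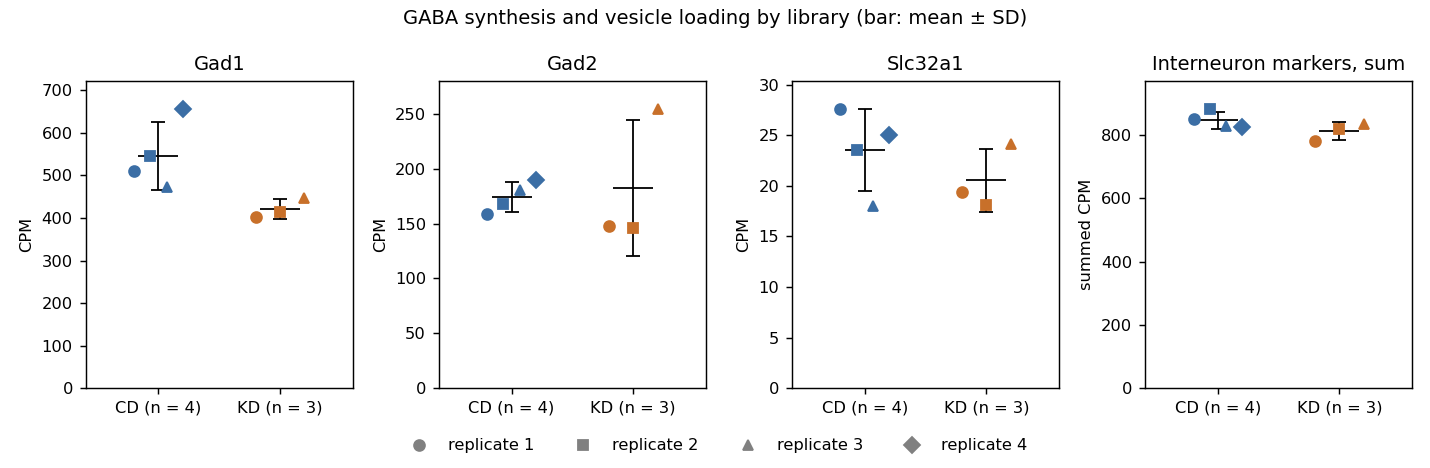
CPM (y axis, from 0) of Gad1, Gad2 and Slc32a1, and the summed CPM of the interneuron markers, by diet (x axis), with 1 point per mouse, a symbol per replicate number and bars for mean ± SD. Only Gad1 has its KD points, from 403 to 448, below all CD points, while KD replicate 3 is the highest point for Gad2 at 255.

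Sequences before the RefSeq starts of both decarboxylase genes are shown because these are the 2 genes that make GABA. Both come from RefSeq (build GRCm38.p6), plus strand, start 250 bases before the RefSeq start and end where the next exon annotated in GENCODE M21 begins. The Gad1 stretch lies inside the GENCODE span of the gene (70553072 to 70602014) because an annotated isoform starts further upstream. The Gad1 stretch is chr2:70561879-70562041, 163 bases with 46.6% G or C. The Gad2 stretch is chr2:22622077-22622204, 128 bases with 62.5% G or C. Capitals mark a TATAAA box read on the opposite strand in Gad1, where the RefSeq start lies 141 bases further on.
Gad1: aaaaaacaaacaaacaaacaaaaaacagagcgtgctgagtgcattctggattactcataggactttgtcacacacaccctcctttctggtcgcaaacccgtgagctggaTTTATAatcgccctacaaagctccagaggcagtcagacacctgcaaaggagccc
Gad2: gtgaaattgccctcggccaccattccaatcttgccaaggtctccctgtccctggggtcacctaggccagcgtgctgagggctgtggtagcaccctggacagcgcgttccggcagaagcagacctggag
TATAAA on either strand was found in the 250 bases before the start for 12.4% of 32851 promoters, and for 4 of the 28 promoter entries that matched 23 of the 29 GABA genes. The half-site TGACG, which CREB can bind, was held by 17.8% of all promoters and by 4 of these 28. Gad2 was among the 4, with the half-site on the opposite strand 33 bases before the RefSeq start. Gad1 held the GC box GGGCGG on the opposite strand 8 bases before its start. Both sites lie past the ends of the stretches shown.

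The genes of GABA uptake and breakdown had overlapping values in the diets. Slc6a11, which encodes the astrocytic transporter GAT3, had 76.5 ± 15.7 CPM in CD against 83.9 ± 6.15 CPM in KD, a log2 fold change of 0.13 that was 0.24 without CD replicate 4 and 0.058 without CD replicate 3. Abat, the transaminase that starts GABA breakdown in mitochondria, had 302 ± 35.0 CPM in CD and 307 ± 20.9 CPM in KD, a log2 fold change of 0.02 (standard error 0.11). Aldh5a1, the dehydrogenase of the following step, had 93.8 ± 8.91 CPM in CD and 91.0 ± 3.95 CPM in KD, a log2 fold change of -0.04 (standard error 0.09). Beside these, the astrocyte markers summed to 5666 to 6532 CPM in CD and 5135 to 7803 CPM in KD.

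Among the GABA-A receptor subunits, 7 of the 10 tested had a higher fitted level in KD, and only Gabrb1 and Gabrq of the 10 passed the raw threshold in edgeR. Alpha and beta subunits hold the GABA binding site, and the gamma or delta subunit sets where the channel sits and how fast it closes. Per kilobase of exon the most abundant was Gabrb2 at 113 ± 8.31 CPM per kilobase (SD over all 7 libraries). It was followed by Gabra3 (36.6 ± 8.57), Gabra4 (30.6 ± 4.59), Gabrd (25.8 ± 7.99) and Gabra5 (21.3 ± 6.86), where each differed from the next by less than the larger of their SDs. Gabra2 (11.9 ± 4.87), Gabrg1 (6.88 ± 3.48) and Gabrb1 (4.17 ± 0.893) came next, and of these Gabrg1 and Gabrb1 differed by less than the SD of Gabrg1. Gabrg3 (0.99 ± 0.147), Gabrq (0.284 ± 0.499) and Gabre (0.0207 ± 0.0216) were the lowest in CPM per kilobase. The lengths join all annotated isoforms, 13838 bases for Gabrb1 and 11934 for Gabrg3, which lowers the values of these 2 genes.

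The 5 subunits with the largest folds were all highest in KD replicate 3. Gabrq encodes theta, a subunit best known from hypothalamus and monoamine nuclei. It had 8, 13, 24 and 22 counts in CD, 11 and 20 counts in KD replicates 1 and 2, and 171 counts in KD replicate 3. Only that last library stood above CD. Its log2 fold change of 2.51 (standard error 0.94, raw p of 0.027 in edgeR) became 0.12 without KD replicate 3. The raw p was under 0.05 in 8 of the 14 alternative fits that gave a fold for it. DESeq2 was among the 14, with a log2 fold change of 2.53 but no p-value. Gabre, which encodes epsilon and has a like distribution, had 2, 2, 1 and 5 counts in CD and 0, 3 and 7 counts in KD, too few to be tested.

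Gabrg1 encodes gamma-1, a subunit used in amygdala, hypothalamus and by glia. It had 44.5, 41.9, 42.8 and 44.7 CPM in CD and 47.3, 41.9 and 116 CPM in KD. Replicates 1 and 2 of KD lay near the narrow CD range and replicate 3 far above it. Its log2 fold change of 0.65 (standard error 0.32, raw p of 0.071 in edgeR) became 0.034 without KD replicate 3. It became 0.86 without KD replicate 1 and 0.91 without KD replicate 2, where the raw p was 0.0329 and 0.0154 in edgeR. Gabra2, the alpha subunit of synapses on the axon initial segment and in the limbic forebrain, had 72.3, 72.9, 89.5 and 73.6 CPM in CD and 116, 51.2 and 163 CPM in KD. Its KD libraries were the highest, the second highest and the lowest of all 7. The fitted log2 fold change of 0.51 (standard error 0.32) became 0.11 without KD replicate 3, and 0.85 with a raw p of 0.000703 in edgeR without KD replicate 2.

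Gabra3, an alpha subunit of deep cortical layers and of nuclei outside the cortex, had 126, 122, 161 and 95.7 CPM in CD and 142, 159 and 200 CPM in KD. One CD library, replicate 3, lay above 2 of the KD libraries. A log2 fold change of 0.40 (standard error 0.18, raw p of 0.0529 in edgeR) became 0.25 without KD replicate 3 and 0.15 when CD replicate 4 was left out as well. It became 0.54 without CD replicate 3 and 0.51 without KD replicate 1, where the raw p was 0.0106 and 0.0359 in edgeR, and 5 of the 15 alternative fits gave a raw p under 0.05. Gabrb1, a beta subunit, had 45.3, 45.9, 59.5 and 53.5 CPM in CD and 64.7, 54.0 and 81.0 CPM in KD. Replicates 1 and 3 of KD lay above all CD libraries and replicate 2 among them. Together they gave a log2 fold change of 0.38 (standard error 0.15), a raw p of 0.0367 and an adjusted p of 0.979 in edgeR's quasi-likelihood test. It stayed positive in all 15 alternative fits, from 0.21 without KD replicate 3 to 0.51 without KD replicate 2, but its raw p in edgeR rose above 0.05 with library size alone and without CD replicate 1, CD replicate 2, KD replicate 1 or KD replicate 3. The same held without CD replicate 4 and KD replicate 3 together, so 9 of the 15 passed. KD replicate 3 was the library with the highest sums of ventral forebrain and striatal markers, and their part in these 5 subunits and in Gad2 was not tested.

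**Figure D3:**
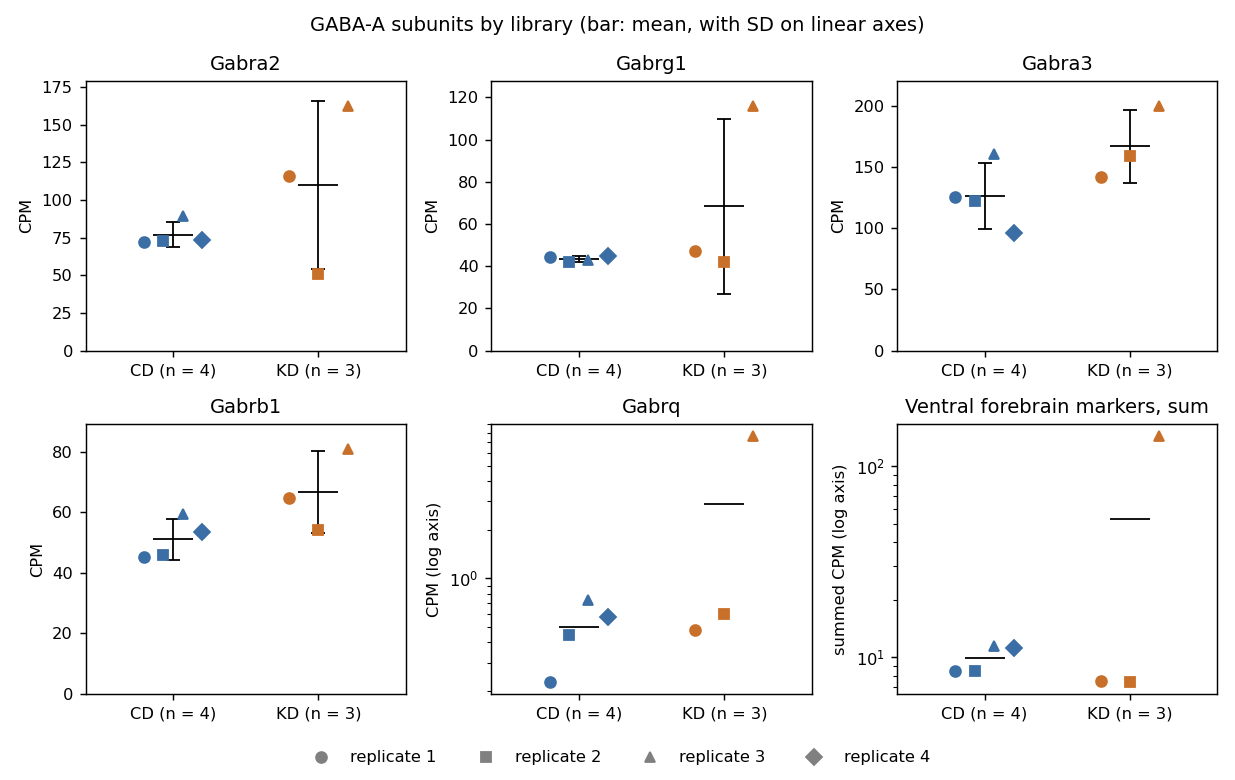
CPM (y axis, linear from 0 except log for Gabrq and for the marker sum) of 5 GABA-A subunits and of the summed ventral forebrain markers, by diet (x axis), with 1 point per mouse and bars for the mean, with SD on the linear axes. KD replicate 3 is the highest point in each panel, at 116 for Gabrg1 and 143 for the marker sum.

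These genes lie in clusters. On chromosome 5, Gabrg1 (70751047 to 70842617) and Gabra2 (70957597 to 71095849) are 115 kb apart on the minus strand, followed by Gabra4 and Gabrb1. Their log2 fold changes in that order were 0.65, 0.51, 0.09 and 0.38, with Gabra4 the smallest. Gabra4 and Gabrb1 overlap at their starts on opposite strands and share 46 exon bases. On the X chromosome, Gabre, Gabra3 and Gabrq lie within 1 cluster with gaps of 157.9 and 168.3 kb. On chromosome 7, Gabrg3 and Gabra5 are 20.5 kb apart, with log2 fold changes of 0.11 and -0.21.

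The 250 bases before the starts of Gabrg1 and Gabra2 are shown because these neighbours were both highest in KD replicate 3. Both come from RefSeq (GRCm38.p6), minus strand, read 5′ to 3′, at chr5:70842618-70842867 for Gabrg1 and chr5:71095850-71096099 for Gabra2. Capitals mark the homeobox core TAATTA, present as 2 overlapping copies in Gabrg1, and the GC box GGGCGG in Gabra2.
Gabrg1: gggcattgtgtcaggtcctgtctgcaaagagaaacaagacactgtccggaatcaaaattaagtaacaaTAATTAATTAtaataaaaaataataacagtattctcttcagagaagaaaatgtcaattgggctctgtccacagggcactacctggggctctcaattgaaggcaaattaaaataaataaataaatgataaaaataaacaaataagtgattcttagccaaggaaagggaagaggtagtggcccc
Gabra2: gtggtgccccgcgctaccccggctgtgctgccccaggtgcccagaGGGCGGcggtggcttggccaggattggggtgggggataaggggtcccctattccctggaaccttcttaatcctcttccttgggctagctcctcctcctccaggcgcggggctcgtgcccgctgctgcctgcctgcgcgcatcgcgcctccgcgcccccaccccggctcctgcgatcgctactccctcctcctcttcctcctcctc
The Gabrg1 window has 35.6% G or C and the Gabra2 window 70%, so the neighbours differ in base composition. TAATTA was held by 4.8% of all 32851 promoters and by this 1 of the 28 entries of the GABA genes. GGGCGG was held by 32.7% of all promoters and by 14 of the 28. The E-box CACGTG was held by 6% of all promoters and by 1 of the 28, at Slc12a5.

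The other subunits overlapped between diets. Gabrb2, part of the main synaptic receptor, had 724 ± 27.0 CPM in CD against 705 ± 83.6 CPM in KD. Gabra4, an alpha subunit of receptors outside the synapse, had 181 ± 33.4 CPM in CD and 193 ± 23.4 CPM in KD. Gabrg3, a rare gamma subunit, had 11.4 ± 1.86 CPM in CD and 12.3 ± 1.83 CPM in KD. Gabra5, the alpha subunit of tonic inhibition in hippocampus and deep layers, had 107 CPM in CD replicate 4 against 47.6 to 65.4 CPM in the other 6 libraries. Without that library its log2 fold change moved from -0.21 to 0.10.

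Gabrd encodes delta, which pairs with Gabra4 in receptors outside the synapse. It had 95.9, 88.3, 86.7 and 38.4 CPM in CD and 65.0, 94.6 and 50.4 CPM in KD. The 3 low libraries were CD replicate 4, KD replicate 3 and KD replicate 1, so both diets spanned the range. Its log2 fold change of -0.14 (standard error 0.32) became -0.37 without CD replicate 4. The same 3 libraries had the lowest Rorb, a marker of layer 4 neurons, with 53.1, 67.5 and 110 CPM against 191 to 219 CPM in the others. Rorb was set beside Gabrd after their values were seen, and its part in the spread was not tested.

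The metabotropic GABA-B receptor subunits overlapped between diets. Gabbr1, the subunit that binds GABA, had 808, 864, 829 and 673 CPM in CD and 767, 847 and 890 CPM in KD. Gabbr2, the subunit that couples to the G protein, had 205, 205, 229 and 157 CPM in CD and 203, 213 and 183 CPM in KD. The lowest value of both was that of CD replicate 4, and the log2 fold changes were 0.07 (standard error 0.11) and 0.01 (standard error 0.13). Of the auxiliary subunits that set how fast the receptor response fades, Kctd8 fitted lower in KD and Kctd12 and Kctd16 higher, and none had a raw p under 0.05 with all 7 libraries in edgeR. Kctd8 had 9.92, 12.1, 8.67 and 13.9 CPM in CD and 8.72, 8.65 and 9.64 CPM in KD, a log2 fold change of -0.31 (standard error 0.18) that stayed negative in all 15 alternative fits. It was -0.41 with a raw p of 0.0398 in edgeR without CD replicate 3 and -0.18 without CD replicate 4. All its KD values lay at or near the lower end of the CD range. Kctd12 was highest in KD replicate 3 (217 CPM) and CD replicate 4 (186 CPM), and lay between 106 and 139 CPM in the other 5 libraries. Kctd16 had 49.1 ± 14.3 CPM in CD against 56.9 ± 8.56 CPM in KD, with a log2 fold change of 0.21 that was 0.036 without CD replicate 4 and 0.37 without CD replicate 3.

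The scaffold of inhibitory synapses did not differ beyond its spread. Gphn encodes gephyrin, which anchors GABA-A receptors, and was the steadiest of the 29 genes. It had 119, 125, 121 and 127 CPM in CD and 120, 126 and 127 CPM in KD, a coefficient of variation of 2.85% over the 7 libraries. Its log2 fold change was 0.02 with a standard error of 0.07, the smallest standard error of the 28. Nlgn2, the adhesion protein of inhibitory synapses, had 123 ± 10.1 CPM in CD against 117 ± 16.7 CPM in KD, a log2 fold change of -0.08 (standard error 0.11) that was -0.20 without KD replicate 3.

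The chloride transporters had a steady and a variable member. Slc12a5 encodes KCC2, which exports chloride from mature neurons. It had 571, 567, 591 and 566 CPM in CD and 525, 621 and 538 CPM in KD, a log2 fold change of -0.03 (standard error 0.085). Slc12a2 encodes NKCC1, which imports chloride and is also made by glia and choroid plexus. It had 165, 176, 93.3 and 178 CPM in CD and 189, 122 and 90.5 CPM in KD. The highest and the lowest of the 7 libraries were both KD, and the log2 fold change was -0.19 (standard error 0.29). The ratio of Slc12a5 to Slc12a2 counts was 3.47, 3.23, 6.33 and 3.19 in CD and 2.78, 5.09 and 5.94 in KD, so the ranges of the diets overlapped. The oligodendrocyte markers were low in the same libraries as Slc12a2, with sums of 1105 CPM in CD replicate 3, 1134 CPM in KD replicate 3 and 2175 CPM in KD replicate 2, against 3576 to 4281 CPM in the other 4. All 8 of these markers had a lower fitted level in KD and none had a raw p-value under 0.05 in edgeR. The choroid plexus markers summed to 457 CPM in CD replicate 1, of which Ttr made 427 CPM, and to between 11.2 and 72.1 CPM in the other libraries. The part of oligodendrocyte or choroid plexus content in Slc12a2 was not tested.

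**Figure D4:**
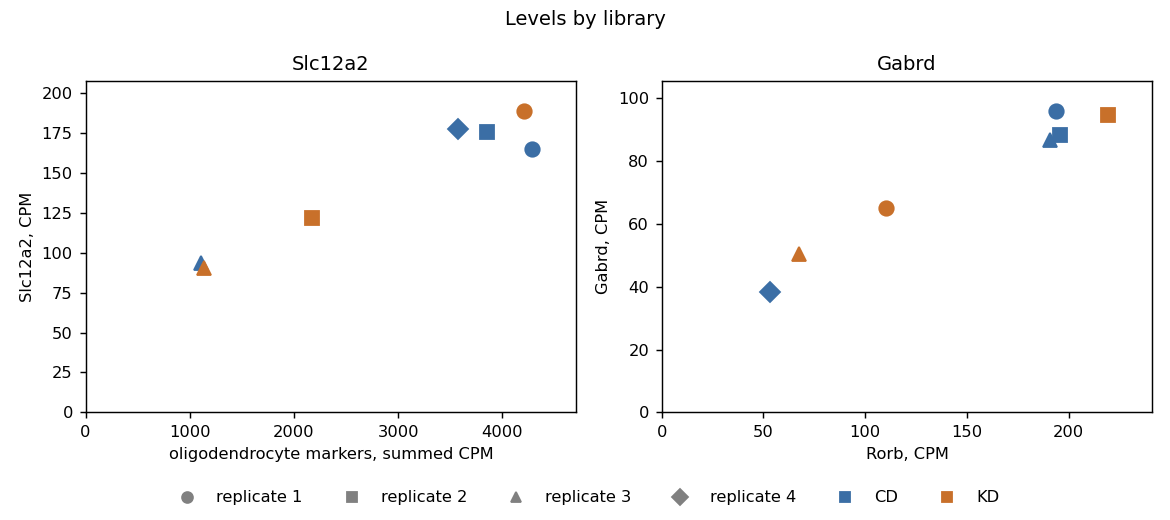
Left, Slc12a2 (CPM, y axis) against the summed CPM of the oligodendrocyte markers (x axis), and right, Gabrd (CPM) against Rorb (CPM), with 1 point per library, colour for diet and symbol for replicate number. Slc12a2 is lowest, at 90.5 and 93.3, in a KD and a CD library with marker sums of 1134 and 1105, and Gabrd is lowest in CD replicate 4 at 38.4.

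The Dlx homeobox factors, which specify forebrain interneurons and persist at low levels in some of them, were rare. Dlx1 had 6.60 ± 1.58 CPM in CD against 7.18 ± 0.758 CPM in KD, with 8.97 CPM in CD replicate 4, and its log2 fold change was 0.12, 0.30 without that library and 0.027 without KD replicate 3. Its exons share 335 bases with the antisense gene Dlx1as. Exons of opposite-strand genes also cover 3805 bases of Kctd12, 796 of Aldh5a1, 697 of Slc32a1, 360 of Kctd16 and 148 of Gabra5. They cover 147 bases of Gphn, 106 of Kctd8 and 104 of Dlx6, and Gabra4 and Gabrb1 share 46. The counts of all these genes, Dlx1 included, are less certain should the counting have ignored strand. Dlx5 had from 12 to 32 counts per library and Dlx6 from 32 to 59. Both were highest in KD replicate 3, at 1.19 and 2.61 CPM, and their log2 fold changes without it were -0.61 and -0.04. Dlx5 and Dlx6 lie 9.2 kb apart on chromosome 6.

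By library, KD replicate 3 was the highest of the 7 libraries for 12 of the 28 tested genes and the lowest for 2. CD replicate 4 was the highest for 6 and the lowest for 6, and KD replicate 2 for 4 and 7. The remaining libraries were at an end for 3 to 6 genes each. The same count was not made over all tested genes, so these counts are not read as a trait of the GABA genes. The median of the 28 genes relative to the CD mean lay between -0.02 and 0.06 on the log2 scale in the CD libraries, at 0.01 and 0.03 in KD replicates 1 and 2, and at 0.10 in KD replicate 3.

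**Figure D5:**
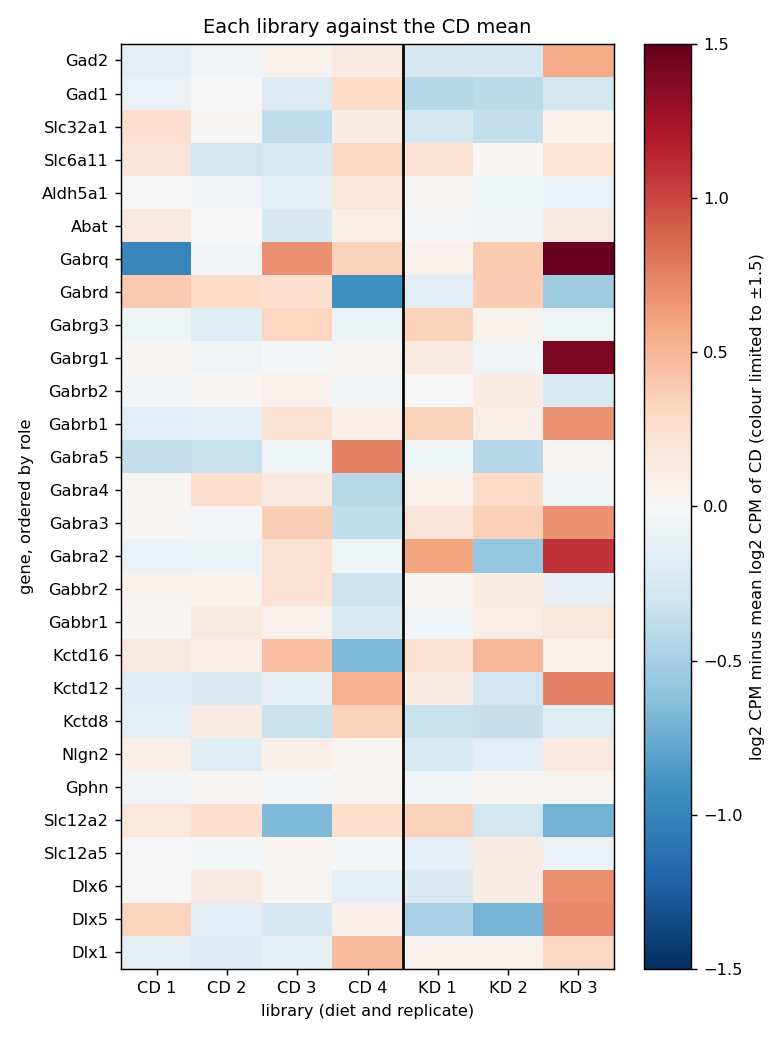
Log2 CPM of each library minus the mean log2 CPM of CD (colour, limited to ±1.5) for the 28 tested GABA genes (rows, ordered by role) in the 7 libraries (columns). KD replicate 3 holds the strongest colours, for Gabrq, Gabrg1 and Gabra2, and Gad1 is blue in all 3 KD columns.

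Another 25 genes of GABA transmission were listed beside the 29, and 21 of them were tested. Of these 7 had a higher and 14 a lower fitted level in KD, with a median log2 fold change of -0.05. One of the 21 had a raw p-value under 0.05 in edgeR, as did 3.19% of all tested genes. It was Slc38a1, whose transporter supplies neurons with the glutamine from which GABA is made. It had 222, 219, 209 and 289 CPM in CD and 208, 191 and 178 CPM in KD, and each KD library lay below each CD library. The log2 fold change was -0.29 (standard error 0.13), with a raw p of 0.0493 and an adjusted p of 0.979 in edgeR's quasi-likelihood test. That raw p passed the threshold in 4 of the 15 alternative fits and missed it in the others. The next smallest raw p-values in edgeR were 0.057 for Gabrr2, a rho subunit (log2 fold change -1.26, standard error 0.57), 0.142 for Dlx2, whose ranges also did not overlap (-0.59, 0.36), and 0.192 for Iqsec3, a scaffold partner of gephyrin (-0.15, 0.11). Ranges did not overlap for 2 of the 21, Slc38a1 and Dlx2, and for 4.11% of all tested genes.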

How the data were processed

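Frozen cortex of single mice was used for TruSeq Stranded Total RNA libraries. The authors aligned reads to mm10 with STAR, counted them per gene with the HTSeq routine inside it, and deposited raw counts per gene symbol without normalization. P-values weigh the difference between the diets against the spread between these mice. Tool versions, annotation and strand setting are not given in the sources used here. Diet and replicate came from the sample labels. Counts were compared (KD against CD) over the whole table with edgeR 4.0.16 in R 4.3.3: filterByExpr, TMM, glmQLFit (robust) and glmQLFTest, no covariate, Benjamini-Hochberg over 15881 genes. Low counts are least precise in the smaller KD libraries, and 3 counts correspond to 0.0789 to 0.133 CPM. Lengths and positions come from GENCODE M21 on the same genome. The fit was tested on simulated data. Alternatives were RLE or library-size scaling, both other filters, DESeq2 1.42.0, Xist as a covariate, a replicate block and left-out libraries. The genes, marker lists, tests and alternatives were chosen with earlier results of these data known. Values were given in full for genes with a raw p under 0.05, an absolute log2 fold change of at least 0.3 or ranges that do not overlap, and for the main genes of each role; others by mean, range or fold.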

Additional observations from a re-analysis of the deposited data

Results flagged for a closer look

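In the 4 CD libraries, 44 values (28 genes, 13 summed gene lists and 3 ratios) were examined for a library whose gap to its nearest neighbour, divided by the range of the group, exceeded Dixon's 95% critical value, and 7 did, where chance gives about 2.2. They share genes and libraries. CD replicate 3 stood apart in Gabra2 (high, gap over range 0.918), Slc12a2 (low, 0.882), the ratio of Slc12a5 to Slc12a2 (high, 0.877) and the oligodendrocyte marker sum (low, 0.867). CD replicate 4 stood apart in Dlx1 (high, 0.92), Gabrd (low, 0.89) and Kctd12 (high, 0.884). Without CD replicate 3 the log2 fold change was 0.59 for Gabra2 and -0.37 for Slc12a2. Without CD replicate 4 it was 0.30 for Dlx1, -0.37 for Gabrd and 0.43 for Kctd12, and for these 5 genes edgeR's raw p stayed above 0.05 without the library named.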

How the results depend on the processing

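The count of GABA genes at an adjusted p under 0.05 was 0 in edgeR and in all 15 alternatives, DESeq2 included. At a raw p under 0.05 the count of 3 became 5 once Xist entered as a covariate, where the share over all genes rose from 3.19% to 6.95%. It ranged from 1 to 5 when libraries were left out, with 1.63% to 7.38% of all genes. For the other GABA pathway genes the count of 1 became 0 with RLE scaling (3.16% of all genes), with library size alone (3.24%) or with at least 1 CPM in 3 libraries (3.1%). It became 2 with at least 1 count in any library (3.02%), with DESeq2 (3.68%) or with the Xist covariate (6.95%). When libraries were left out it ran from 0 to 2, with 1.63% to 7.38% of all genes. The median over the GABA genes stayed above 0 throughout.

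Replicate numbers were set as a block over replicates 1 to 3. Deviations of same-numbered libraries correlated at 0.251, 0.195 and 0.098 across genes, so the numbers were not taken to pair the mice, although each CD library correlated best with its own number. With the replicate block 5 GABA genes had a raw p under 0.05, as did 5.89% of all genes. They were Gad1, Gabrb1, Gabrq, Gabra3 (0.29, raw p of 0.0106 in edgeR) and Slc6a11 (0.26, raw p of 0.0435). Under the block, log2 fold changes turned to 0.019 for Aldh5a1, -0.00072 for Gabbr1, -0.093 for Gabbr2, -0.034 for Gabra4 and 0.098 for Gabra5. Gabbr2 also turned to -0.0023 with library size alone, -0.0023 with at least 1 count in any library and -0.012 with the Xist covariate.

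Of the 28 genes 12 kept their direction in each alternative that tested them, Gad1, Gabrb1, Gabra2, Gabra3, Gabrg1, Gabrq and Kctd8 among them. The other 16 turned at least once. With libraries left out, the log2 fold change ran from -0.053 to 0.069 for Abat, -0.091 to 0.044 for Aldh5a1, -0.61 to 0.22 for Dlx5, -0.085 to 0.43 for Dlx6, -0.043 to 0.13 for Gabbr1 and -0.092 to 0.081 for Gabbr2. It ran from -0.030 to 0.17 for Gabra4, -0.33 to 0.10 for Gabra5, -0.12 to 0.048 for Gabrb2, -0.42 to 0.043 for Gabrd, -0.015 to 0.23 for Gabrg3 and -0.25 to 0.21 for Gad2. It ran from -0.0013 to 0.042 for Gphn, -0.11 to 0.43 for Kctd12, -0.52 to 0.11 for Slc12a2 and -0.11 to 0.015 for Slc12a5. The cause of these turns was not tested. Gabre, Gabrq and Dlx5 had the fewest counts and are limited most by depth.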

Other observations

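The GABA and betaine transporters Slc6a13 and Slc6a12, which are made by cells of the meninges, were highest in CD replicate 4. Slc6a13 had 47.5 CPM there, 8.14 to 17.1 CPM in the other CD libraries and 6.52, 8.23 and 22.1 CPM in KD. Slc6a12 had 7.68 CPM there and at most 3.1 CPM in any other library. The meningeal fibroblast markers summed to 285 CPM in that library and to 42.6 to 131 CPM in the others. Of the 14 interneuron markers, Nos1, Calb2 and Reln were highest in KD replicate 3, at 86.4, 48.5 and 306 CPM, and next highest in CD replicate 4, at 36.8, 32.8 and 295 CPM. Lamp5 was lowest in the same libraries, at 63.2 CPM in each against 154 to 194 CPM in the others. Cck was lowest in KD replicate 3, at 86.8 CPM against 125 to 172 CPM. These genes were chosen after their values were seen.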
